A study of Homo sapiens with 4 samples.

Results

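The cell cycle genes described here are 9 regulators of the G1 phase, namely the CDK inhibitors CDKN1A, CDKN1B, CDKN2C and CDKN2D, the D-type cyclins CCND2 and CCND3, the kinases CDK4 and CDK6, and the retinoblastoma gene RB1. Every probe set whose single gene symbol in the platform annotation was one of them was taken, which gave 20 of the 54675 probe sets on the array, for 8 of the 9 genes. CDKN2C is not analysed here. They were measured in Jurkat, a human cell line of T cell leukaemia origin, in 4 groups of 1 array each. These were Jurkat cells with an shRNA against IKKe (the shIKKE line), given 10 ng/ml PMA together with 0.5 uM ionomycin during 3 h (stimulated) or given solvent, and Jurkat cells with a control construct (the control line), stimulated in the same way or given solvent. The sample titles call the control construct a vector and the design text calls it a control hairpin, and the sources used here do not say whether either line is a single clone. PMA is an activator of protein kinase C and ionomycin is a calcium ionophore, so that together they imitate signals of the T cell receptor. As each group has 1 array, differences between arrays lack replicates and are given as values without a test.

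In G1, cyclin D2 and cyclin D3 switch on CDK4 and CDK6, which phosphorylate the retinoblastoma protein and so free E2F transcription factors to start the genes of DNA replication. Inhibitors of the INK4 family, such as the product of CDKN2D, bind CDK4 and CDK6 themselves, whereas the products of CDKN1A and CDKN1B, of the Cip/Kip family, bind cyclin-CDK complexes. In T cells the D-type cyclins and CDKN1B are known to link antigen and cytokine signals to division, and CDKN1A is known both as a p53 target and as a gene that growth and stress signals induce quickly.

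The deposited values are MAS5 signals, a brightness per probe set on a linear scale, scaled to the same trimmed mean on each array. The median signal over all probe sets was still higher on the stimulated arrays, at 69.1 in the shIKKE line and 59.8 in the control line, than on the solvent arrays, at 49.7 in the shIKKE line and 48.8 in the control line. The targeted gene IKBKE read 248 with stimulation and 180 with solvent by the brighter probe set in the shIKKE line, against 520 with stimulation and 340 with solvent in the control line. Its dimmer probe set read 280 and 287 in the shIKKE line, against 311 and 218 in the control line, in the same order, so the lower signal was seen by both probe sets with stimulation and by one of them with solvent. The 10 T cell markers examined all passed the filter described below, with median signals between 3135 and 4568 on the arrays, and the medians of the B cell, myeloid, natural killer, erythroid and epithelial markers were between 6.62 and 74.6. The dimmest T cell markers were CD2 and CD5, and on the stimulated array of the shIKKE line they read 353 and 366, below the B cell marker CD79A at 408. CD2 also differed between the lines, at 353 with stimulation and 500.3 with solvent in the shIKKE line, against 760.4 and 1976 in the control line, and its part in the line differences of the members was not tested. As a sign of RNA integrity, the ratio of 5′ to 3′ signal of ACTB was 0.266 with stimulation and 0.339 with solvent in the shIKKE line, against 0.401 and 0.244 in the control line. That of GAPDH was 1.17 and 1.04 in the shIKKE line, against 1.06 and 1.06 in the control line, in the same order. The part of RNA integrity in the results below was not tested. Differences below are of log2 of the signal plus 14.1, which understates those of dim probe sets. A gene is represented by its brightest probe set, and the background is the 13717 genes with a probe set that reached a signal of 56.4 on at least 1 array. All 8 genes and 18 of the 20 probe sets passed that filter.

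The promoters of CDKN1A and CDKN1B are shown because the values of these related inhibitors with stimulation lay far apart. Each sequence runs from 250 bases before to 50 bases after a start site in RefSeq (GRCh38.p14, plus strand), at chr6:36678464-36678763 for CDKN1A and chr12:12717118-12717417 for CDKN1B. Capitals mark GGGCGG, the GC box that Sp1 family factors are known to bind, searched on both strands.
CDKN1A: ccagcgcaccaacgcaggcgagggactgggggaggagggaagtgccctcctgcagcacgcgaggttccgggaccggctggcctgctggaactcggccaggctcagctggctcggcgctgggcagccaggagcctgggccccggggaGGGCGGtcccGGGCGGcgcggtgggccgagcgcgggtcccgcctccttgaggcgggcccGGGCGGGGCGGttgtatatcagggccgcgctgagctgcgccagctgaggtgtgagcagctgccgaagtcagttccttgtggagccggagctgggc
CDKN1B: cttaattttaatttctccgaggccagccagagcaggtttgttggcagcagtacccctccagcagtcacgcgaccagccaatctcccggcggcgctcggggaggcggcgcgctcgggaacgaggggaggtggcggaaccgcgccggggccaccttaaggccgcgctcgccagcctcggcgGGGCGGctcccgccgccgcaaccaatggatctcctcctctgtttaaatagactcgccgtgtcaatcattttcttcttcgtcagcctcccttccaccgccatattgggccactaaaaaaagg
The CDKN1A window held 4 GC boxes, of which the last pair share a base, and the CDKN1B window held 1. At least 1 such box occurs in 45.0% of the 35116 RefSeq promoter windows of this length, a share that gives no background for the number of boxes. The CDK4 window held 3. One CCND3 window held 2 and 3 on its plus and minus strands, and another held 0. Any link between the number of boxes and the responses was not tested. The AP-1 motif TGANTCA, the NFAT core GGAAAA and the EGR motif GCGGGGGCG were searched on both strands and were in neither window, and they occur in 7.71%, 24.0% and 5.07% of all windows.

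CDKN1A, which encodes an inhibitor of cyclin-CDK complexes, had the largest response to stimulation of the 8 genes and was higher with stimulation in both lines. Its single probe set read 935 with stimulation and 101 with solvent in the shIKKE line. In the control line it read 1312 with stimulation and 245 with solvent. The stimulated arrays were therefore both far above the solvent arrays, and the shIKKE line was below the control line in each treatment. As in each result that follows, fewer cells with the transcript and less of it per cell cannot be told apart in bulk RNA. Stimulation gave a log2 difference of 3.05 in the shIKKE line, 8.26-fold, and 2.36 in the control line, 5.13-fold. These placed CDKN1A 63rd from the highest of 13717 genes in the shIKKE line and 112th in the control line. Between the lines, the log2 difference of the shIKKE line over the control line was -0.48 with stimulation and -1.17 with solvent. The resting difference, 2.25-fold lower, was -0.94 with the median of all signals as pseudocount. The response of the shIKKE line exceeded that of the control line by 0.69 on the log2 scale, a difference that was not tested. The solvent array of the control line enters the response of that line and the resting line difference alike. That array also had high signals of immediate early genes, with EGR1 at 1035 in the shIKKE line and 9953 in the control line with solvent, and FOSB at 7.38 and 1364 in the same order. The part of that pattern in the resting CDKN1A difference was not tested. With the shIKKE line given solvent as the baseline, a choice made after seeing the data, the stimulated control line was higher in CDKN1A by 3.53 on the log2 scale, which includes the line difference.

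CDKN1B, whose product holds cyclin-CDK complexes inactive in resting T cells, differed little with stimulation. It read 3761 with stimulation and 3707 with solvent in the shIKKE line, against 2478 and 3003 in the control line. Both arrays of the shIKKE line were above both arrays of the control line. The log2 difference of stimulation was 0.02 in the shIKKE line and -0.28 in the control line, and that of the shIKKE line over the control line was 0.60 with stimulation and 0.30 with solvent.

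CDKN2D, an INK4 inhibitor of CDK4 and CDK6, was highest in the control line with solvent. Its brighter probe set read 1065 with stimulation and 1113 with solvent in the shIKKE line, against 1252 and 2200.2 in the control line. One array, the control line with solvent, stood above the other 3, which lay close together. Stimulation gave a log2 difference of -0.06 in the shIKKE line and -0.81 in the control line, and that between the lines was -0.23 with stimulation and -0.97 with solvent. The dimmer probe set read 13.6 with stimulation and 58.6 with solvent in the shIKKE line, against 5.83 and 32.9 in the control line. It was lower with stimulation in both lines, by log2 differences of -1.39 and -1.24. In both treatments it was higher in the shIKKE line, opposite to the brighter probe set. The dimmer probe set passed the filter limit of 56.4 only through the solvent array of the shIKKE line, and just above it. Its direction with stimulation therefore lends no support to that of the brighter one.

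**Figure D1:**
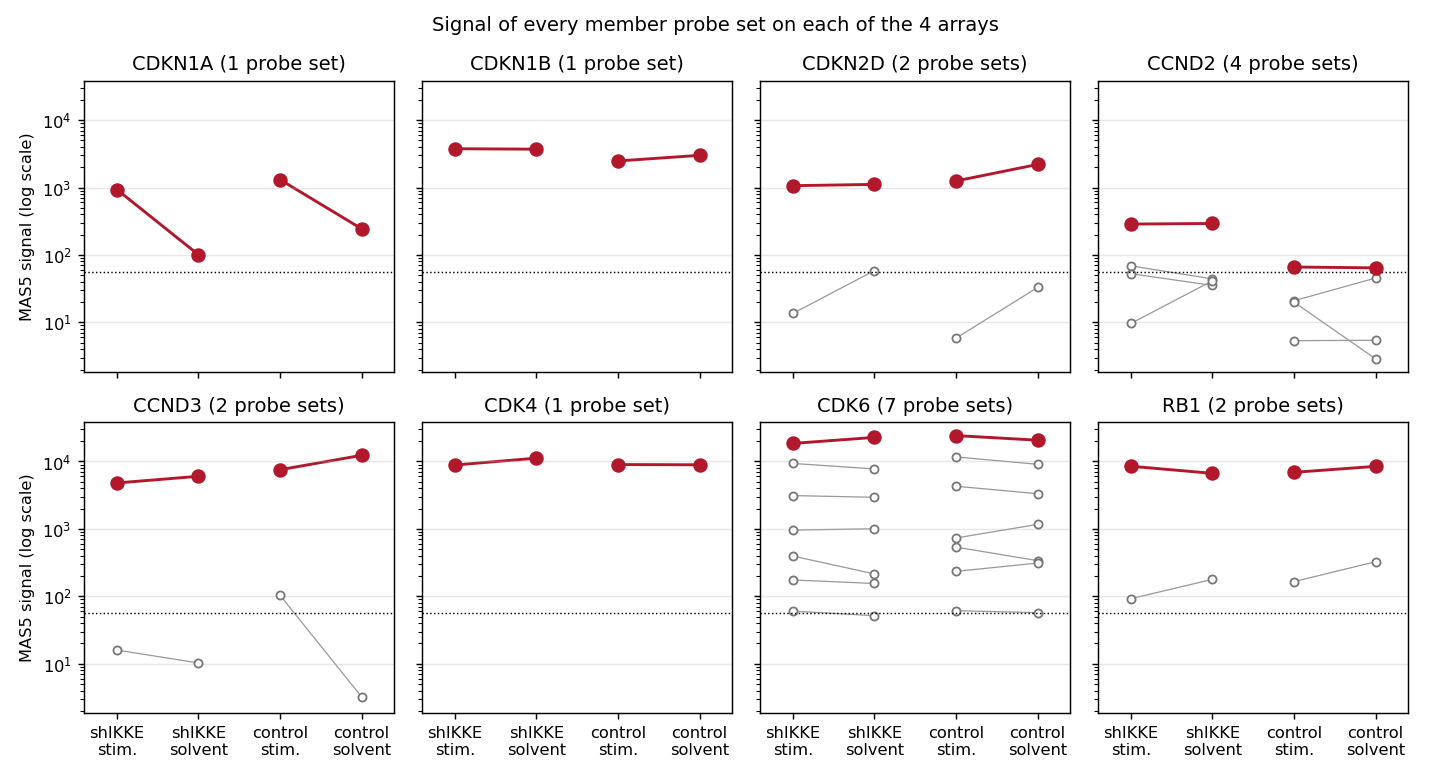
MAS5 signal (log scale) of the 20 probe sets of the 8 genes on the 4 arrays, with 1 array per group. Filled red points are the brightest probe set of each gene, open grey points the others, lines join the 2 treatments of a line, and the dotted line is the filter limit of 56.4. CDKN1A is high on both stimulated arrays (935 and 1312), and the brightest CCND2 probe set is high on both arrays of the shIKKE line (287 and 293).

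CCND2, which encodes cyclin D2, differed between the lines and hardly with stimulation by its brightest probe set. That probe set read 287 with stimulation and 293 with solvent in the shIKKE line. In the control line it read 66.3 with stimulation and 64.3 with solvent, just above the filter limit. The 2 arrays of each line were nearly equal and the lines lay far apart. The log2 difference of the shIKKE line over the control line was 1.91 with stimulation, 3.75-fold, and 1.97 with solvent, 3.92-fold, which placed CCND2 174th and 57th from the highest of 13717 genes. The response to stimulation was -0.03 in the shIKKE line and 0.03 in the control line. The second probe set read 69.0 and 44.1 with stimulation and solvent in the shIKKE line, against 20.9 and 45.5 in the control line. It was higher in the shIKKE line with stimulation (log2 1.25) and showed no such difference with solvent (log2 -0.03). This probe set passed the filter only through the stimulated array of the shIKKE line, so its higher value there is no separate support. The 2 dimmest CCND2 probe sets stayed under the filter limit on each array. They read 52.7 and 9.65 with stimulation and 35.4 and 41.5 with solvent in the shIKKE line, against 19.9 and 5.35 with stimulation and 2.88 and 5.42 with solvent in the control line. Each of these 2 was higher in the shIKKE line in both treatments, with log2 differences from 0.29 to 1.54. With the median of the probe sets past the filter, which are the brightest and that second one, the resting line difference was 0.97 on the log2 scale.

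CCND3, which encodes cyclin D3, the D-type cyclin on which developing T cells are known to depend, had lower signals in the shIKKE line. Its brighter probe set read 4798 with stimulation and 6023 with solvent in the shIKKE line, against 7536 and 12329 in the control line. Both arrays of the shIKKE line were below both of the control line, and in each line the stimulated array was below the solvent array. The log2 difference of the shIKKE line over the control line was -0.65 with stimulation and -1.03 with solvent, and that of stimulation was -0.33 in the shIKKE line and -0.71 in the control line. The other CCND3 probe set exceeded the filter limit on a single array, at 104 in the control line with stimulation, and read 16.0 and 10.3 with stimulation and solvent in the shIKKE line, against 3.24 in the control line with solvent. With the median of both probe sets, the response of the control line was 1.03, of the opposite sign, and the resting line difference was -0.27. The D-type cyclins thus differed between the lines in opposite directions by their brightest probe sets, CCND2 being higher and CCND3 lower in the shIKKE line in both treatments.

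The kinases differed little. CDK4 read 8855 with stimulation and 11200 with solvent in the shIKKE line, against 8996 and 8922 in the control line, so that 3 arrays were nearly equal and the shIKKE line with solvent was somewhat above them. Its log2 differences in the 4 comparisons lay between -0.34 and 0.33. CDK6, the other partner of the D-type cyclins, had 7 probe sets past the filter. The brightest read 18513 with stimulation and 22755 with solvent in the shIKKE line, against 24181 and 20684 in the control line. The log2 difference of stimulation was -0.30 in the shIKKE line and 0.23 in the control line, and that between the lines was -0.39 with stimulation and 0.14 with solvent. Of the 7 probe sets, 5 were higher and 2 lower with stimulation in each line, and 6 were lower in the shIKKE line in each treatment. No CDK6 probe set differed 2-fold in any of the 4 comparisons, with a range from -0.94 to 0.84 on the log2 scale.

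RB1 encodes the retinoblastoma protein, the main substrate of CDK4 and CDK6. Its brighter probe set read 8486 with stimulation and 6662 with solvent in the shIKKE line, against 6895 and 8463 in the control line. The highest and the lowest array were the 2 arrays of the shIKKE line, and the control line went the other way. With stimulation the log2 difference was 0.35 in the shIKKE line and -0.29 in the control line. The dimmer RB1 probe set read 92.2 and 178 with stimulation and solvent in the shIKKE line, against 165 and 326 in the control line. By that probe set RB1 was lower with stimulation in both lines, by log2 differences of -0.86 and -0.92, and lower in the shIKKE line in both treatments, by -0.75 and -0.82. The 2 RB1 probe sets therefore differed in sign for stimulation in the shIKKE line and for the lines with stimulation.

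**Figure D2:**
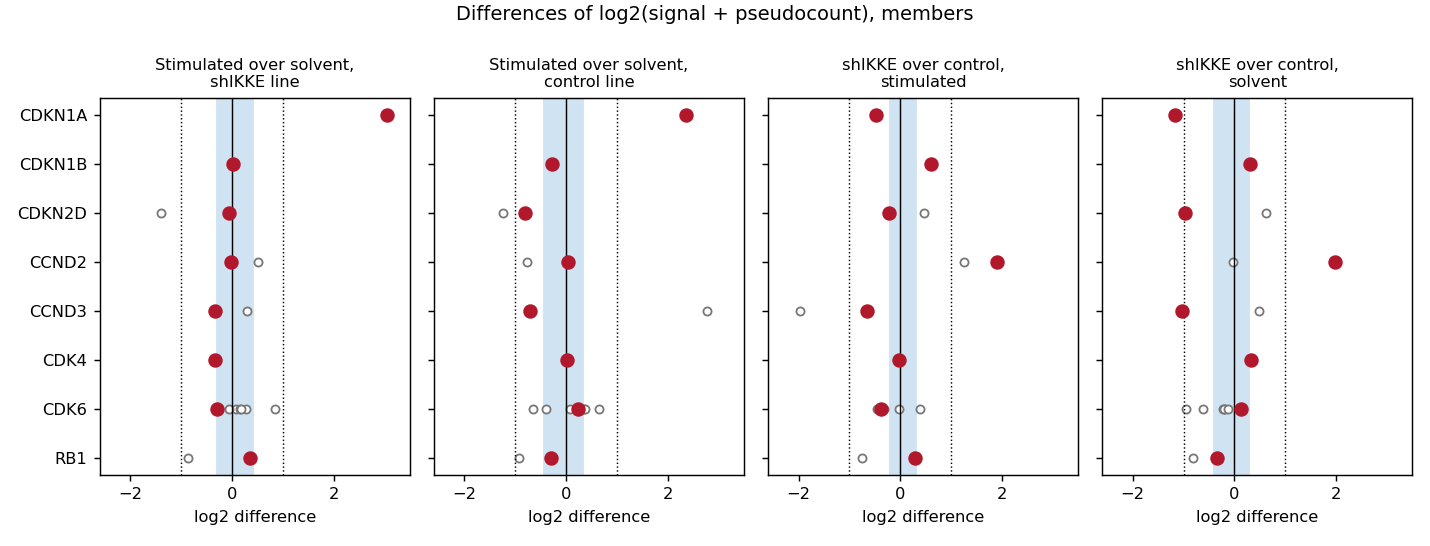
Differences of log2 of the signal plus 14.1 for the 8 genes in the 4 comparisons of single arrays. Filled red points are the brightest probe set of each gene, open points the other probe sets past the filter, the blue band holds the middle part of all genes from their lower to their upper quartile, and dotted lines mark 2-fold. CDKN1A stands outside the band in both stimulation comparisons (3.05 and 2.36) and CCND2 in both line comparisons (1.91 and 1.97).

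By gene, stimulation left 1 of the 8 higher by 2-fold or more in the shIKKE line and none lower, where 10.3% of all genes were higher and 2.68% lower. In the control line 1 of 8 was higher and none lower, against 7.57% higher and 6.44% lower of all genes. In both lines that gene was CDKN1A, and these shares of 1 in 8 are near the background. The median log2 difference of the 8 genes was -0.05 in the shIKKE line and -0.13 in the control line, against -0.01 and -0.07 over all genes. Between the lines, with stimulation 1 of 8 (CCND2) was higher by 2-fold or more in the shIKKE line and none lower, against 5.99% and 2.37% of all genes. With solvent 1 (CCND2) was higher and 2 (CDKN1A and CCND3) were lower, against 4.34% and 6.68% of all genes. The median of the 8 genes was -0.13 with stimulation and -0.10 with solvent, against 0.03 and -0.05 over all genes. None of the 8 had responses that differed at least 2-fold between the lines, where 11.4% of all genes had a higher and 4.67% a lower response in the shIKKE line. After quantile normalization 59.5% of the genes at least 2-fold apart with stimulation were higher in the shIKKE line and 42.6% in the control line, against 79.4% and 54.0% with the scaling as deposited.

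Average effects were fitted with limma as an additive model of line and stimulation over the 4 arrays, with p-values adjusted over all 13717 genes. It leaves 1 residual degree of freedom, taken up by how far the 2 responses differ, and so holds no error between replicates. No member passed an adjusted p of 0.05. Averaged over the lines, CDKN1A was higher with stimulation by 2.70 ± 0.29 (SE) on the log2 scale, in 2 of 2 lines, with an unadjusted p of 0.000349 and an adjusted p of 0.0978 (limma). Averaged over the treatments, CCND2 was higher in the shIKKE line by 1.94 ± 0.25 (SE), in 2 of 2 treatments, with an unadjusted p of 0.000718 and an adjusted p of 0.564 (limma). CCND3 had a line effect of -0.84 ± 0.26 (SE; adjusted p = 0.623, limma) and CDKN1A one of -0.83 ± 0.29 (SE; adjusted p = 0.673, limma), each in the same direction in both treatments. The other stimulation effects of the 8 genes lay between -0.52 and 0.03 with adjusted p from 0.457 to 0.997. Over all genes 1 passed for stimulation (0.00729% of those tested) and 0 for the line (0%), while 1887 and 1000 had an unadjusted p under 0.05.

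**Figure D3:**
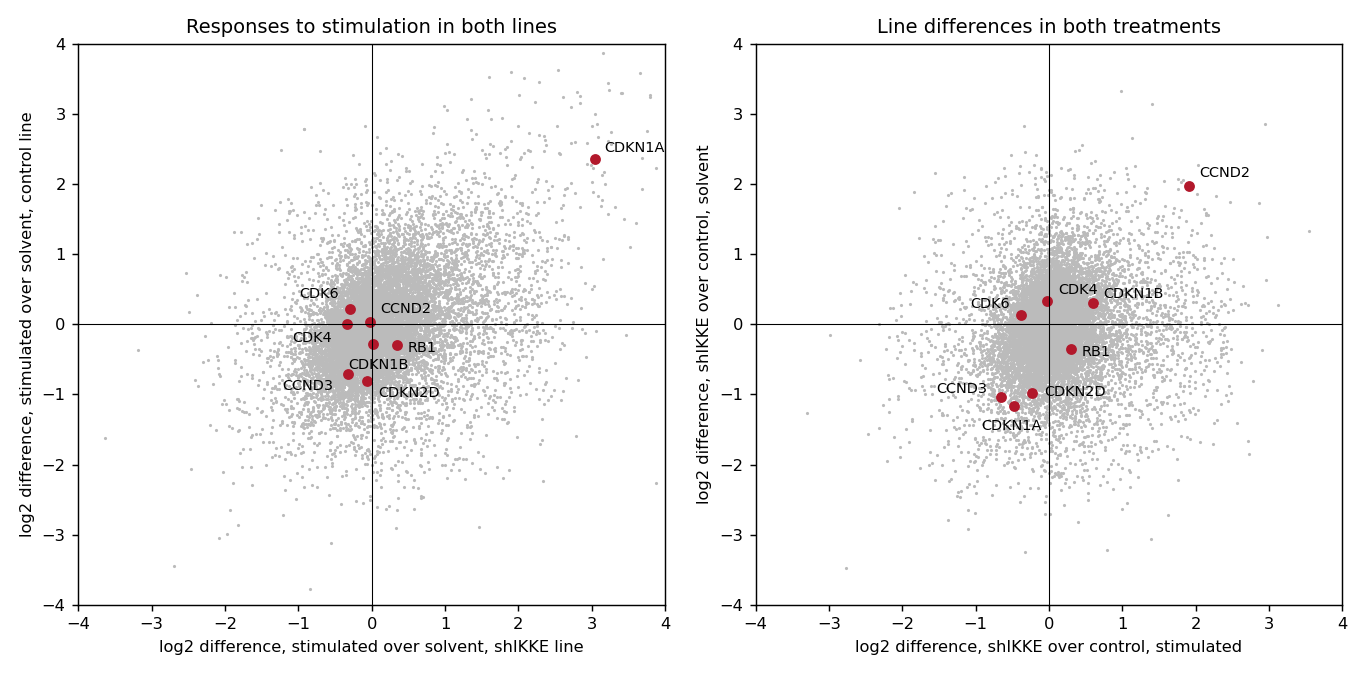
Log2 differences of the 8 genes (red, named) among all 13717 genes (grey), 1 point per gene by its brightest probe set. The left panel sets the response to stimulation in the shIKKE line against that in the control line, and the right panel sets the line difference with stimulation against that with solvent; 30 and 3 genes lie outside the axes. CDKN1A lies at 3.05 and 2.36 in the left panel and CCND2 at 1.91 and 1.97 in the right panel, while the remaining genes lie nearer the centre of each cloud.

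Further lists hold genes that act with the 8 or are targets of the same factors. Of the 13717 genes, 10.3% lay 2-fold or more above the solvent level and 2.68% below it in the shIKKE line, and 7.57% and 6.44% in the control line, and each list's counts are set against these shares. Of 13 other G1 regulators listed, 11 were measured, and none was at least 2-fold higher or lower in the stimulated shIKKE line. In the control line none was higher and 1 lower, CDKN1C, a further Cip/Kip inhibitor, which read 80.4 with stimulation and 175 with solvent. The median of the list was -0.19 in the shIKKE line and -0.50 in the control line, against -0.01 and -0.07 over all genes. The 5 CDKN1C probe sets disagreed, with log2 differences from -1.21 to 0.57 in the control line. CDKN2A, an INK4 inhibitor gene often deleted in T cell leukaemia, was near the filter limit by its brightest probe set, at 37.4 with stimulation and 14.3 with solvent in the shIKKE line, against 64.6 and 59.2 in the control line. Its other 2 probe sets, under the filter limit, were higher in the shIKKE line with solvent (log2 0.24 and 1.66, against -1.37 by the brightest). CCND1 and CDKN2B are not analysed here.

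Of 12 pocket protein and E2F genes, 1 was at least 2-fold lower with stimulation in the shIKKE line and none higher, and in the control line 1 was higher and 1 lower. Over all genes 2.68% were lower and 10.3% higher in the shIKKE line, and 6.44% and 7.57% in the control line. The counts of 1 in 12 in the control line are near the background, and the count in the shIKKE line rests on a single gene. E2F2, an activator of replication genes, was the lower one in both lines, at 641 with stimulation and 1395 with solvent in the shIKKE line (log2 -1.11), against 1232 and 2635 in the control line (log2 -1.09). Its 2 dimmer probe sets responded the other way within the shIKKE line, where the stimulated array was above the solvent array by 0.34 and 1.04 on the log2 scale. E2F3, another activator, was higher in the control line, at 5734 with stimulation and 2484 with solvent (log2 1.20), and read 5537 and 3483 in the shIKKE line (log2 0.67). The atypical repressor gene E2F8 read 1684 and 1210.2 with stimulation and solvent in the shIKKE line, against 1993 and 2807 in the control line. E2F5 read 732 and 965 in the shIKKE line, against 862 and 450 in the control line. The median of the list was -0.15 in the shIKKE line and 0.07 in the control line, against -0.01 and -0.07 over all genes. The other E2F5 probe set, under the filter limit, gave a difference of responses of the opposite sign (log2 0.51, against -1.31 by the brighter one).

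Of 15 measured E2F-driven replication genes (16 listed), none was at least 2-fold higher with stimulation in either line, 1 was lower in the shIKKE line and 2 in the control line. Over all genes 10.3% were higher and 2.68% lower in the shIKKE line, and 7.57% and 6.44% in the control line. ORC1, a subunit of the origin recognition complex, was lower in both, at 422 with stimulation and 893 with solvent in the shIKKE line (log2 -1.06), against 465 and 982 in the control line (log2 -1.06). CDT1, the licensing factor, read 1682 and 2028 in the shIKKE line (log2 -0.27), against 1474 and 3879 in the control line (log2 -1.39). The differences of 14 of 15 were below 0 in the shIKKE line and those of 11 of 15 in the control line. Of all genes, 52.2% lay below 0.02 in the shIKKE line and 55.6% below 0.01 in the control line. The median of the list was -0.26 and -0.24, against -0.01 and -0.07 over all genes. Many genes of the list are bright, and the part of array scaling in such small differences was not tested. Of 12 genes for the turnover of inhibitors and cyclins, none was 2-fold apart in the shIKKE line and 1 was higher in the control line, FBXO31, a ubiquitin ligase subunit, at 1014 with stimulation and 410 with solvent (log2 1.28). It read 641 and 888 in the shIKKE line (log2 -0.46), and the list had medians of -0.20 and 0.02, against -0.01 and -0.07 over all genes. The 1 of 12 in the control line is near the 7.57% of all genes.

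CDKN1A is a p53 target, and of 12 measured genes of that kind (14 listed) 3 were at least 2-fold higher in the stimulated shIKKE line and 1 in the control line, with none lower. The 1 of 12 in the control line is near the 7.57% of all genes, and 3 of 12 stands against 10.3% in the shIKKE line. GADD45A, a stress gene, read 5822 with stimulation and 941 with solvent in the shIKKE line (log2 2.61), against 4159 and 1268 in the control line (log2 1.70). The stress kinase gene PLK3 read 529 and 210.3 in the shIKKE line (log2 1.28), against 279 and 134 in the control line (log2 0.98). Its 3 probe sets were all higher with stimulation in the shIKKE line, by 0.53 to 2.35. They disagreed in the control line, from -0.57 to 1.20. The death gene PMAIP1 read 5683 and 2662 in the shIKKE line (log2 1.09), against 6149 and 3727 in the control line (log2 0.72). The other measured members stayed within 2-fold, among them MDM2, the classic p53 target, at -0.14 in the shIKKE line and -0.13 in the control line. MDM2 is named here after its values were seen, and the activity of p53 itself was not tested. The median of the list was 0.34 in the shIKKE line and -0.13 in the control line, against -0.01 and -0.07 over all genes.

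CDKN1B is known as a target of FOXO factors, and 9 of 10 listed FOXO targets were measured. With stimulation 3 were at least 2-fold higher and none lower in the shIKKE line, and 2 were higher and 2 lower in the control line. Over all genes the shares were 10.3% higher and 2.68% lower in the shIKKE line, and 7.57% and 6.44% in the control line. The repressor gene BCL6 read 1280.4 with stimulation and 202 with solvent in the shIKKE line (log2 2.58), against 1950.4 and 610 in the control line (log2 1.66). CCNG2, a cyclin linked to arrest, read 3632 and 1559 in the shIKKE line (log2 1.21), against 2582 and 4294 in the control line (log2 -0.73). SESN3, a sestrin gene, read 85.0 and 23.7 in the shIKKE line (log2 1.39), against 71.1 and 142 in the control line (log2 -0.87). IL7R, the interleukin receptor gene, read 674 and 1226 in the shIKKE line (log2 -0.85), against 674 and 2003 in the control line (log2 -1.55). With solvent, 4 of the 9 were lower by 2-fold or more in the shIKKE line and none higher, against 6.68% and 4.34% of all genes. With stimulation none was 2-fold apart, against 2.37% lower and 5.99% higher of all genes. The solvent array of the control line, which had the high EGR1 and FOSB signals, enters the line differences with solvent and the responses of that line alike. Its part in these values was not tested. The lower ones with solvent were BCL6, CCNG2, SESN3 and PIK3IP1. Of these, BCL6, SESN3 and PIK3IP1 had probe sets that went the other way. The other BCL6 probe sets were higher in the shIKKE line with solvent (log2 0.26 and 1.05), as were the other PIK3IP1 probe sets (0.77 and 0.36), and 4 of the 7 SESN3 probe sets were above 0, up to 1.13. Apart from its brightest, each probe set of SESN3 and PIK3IP1 was under the filter limit. In the control line KLF2 was the other gene higher with stimulation (log2 1.04) and CITED2 the other lower one (log2 -1.05); KLF2, CITED2 and PIK3IP1 are named after their values were seen. The list had a median response of 0.66 in the shIKKE line and -0.73 in the control line, against -0.01 and -0.07 over all genes. The list was split, with 5 genes above 0 and 4 below in the shIKKE line, and 3 above and 6 below in the control line.

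**Figure D4:**
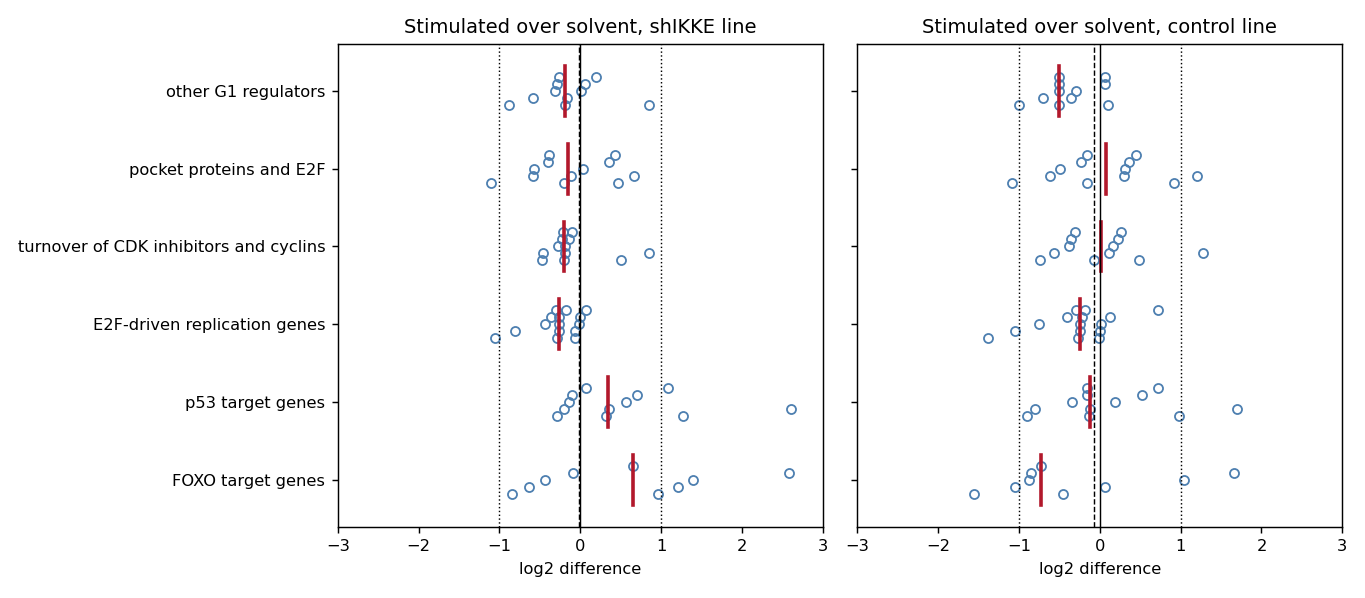
Log2 differences with stimulation in the shIKKE line (left) and the control line (right) for 6 lists of genes around the G1 switch, 1 open circle per measured gene by its brightest probe set. Red bars are list medians, the dashed line is the median of all genes, dotted lines mark 2-fold, and the vertical scatter within a list has no meaning. The median of the E2F-driven replication genes lies slightly below 0 in both panels (-0.26 and -0.24). The FOXO targets lie on both sides of 0 in each panel, with a median of 0.66 in the left and -0.73 in the right.

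Genes with the pattern most like that of a member were found by the root mean square difference of log2 values over the 4 arrays, after subtracting each gene's mean, for the 4 members that spanned at least 1 on the log2 scale. For CDKN1A the closest was PTPRE, a phosphatase gene, at 0.113, reading 3163 with stimulation and 326 with solvent in the shIKKE line, against 4532 and 724 in the control line. Next were MIDN (0.174) and PRSS30P (0.195). For CCND2 the closest were PZP (0.0470), PTGES (0.0699) and RHOBTB2 (0.124). PZP read 54.6 and 58.5 in the shIKKE line, against 5.62 and 3.60 in the control line, and so lay near the filter limit. For CCND3 they were TESK2 (0.0268), IDH2 (0.0325) and IFITM1 (0.0531), and for CDKN2D they were ING4, CD28 and ZNF277, each at 0.0244 or less. CD28, the costimulatory receptor gene, read 2264 with stimulation and 2345 with solvent in the shIKKE line, against 2739 and 4677 in the control line. A match over 4 arrays is loosely constrained among 13717 genes.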

How the data were processed

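Biotin-labelled cRNA of Jurkat cells was hybridised to 4 single-colour arrays, 1 per group. The authors deposited an intensity for each probe set on each array, which is the MAS5 signal per the submitters' processing notes. The sources used here do not give its version, target or filters. The mean trimmed by 2% at both ends came to 500.07 for every array, which points to a common scaling. Precision is limited by the number of arrays, and 0 columns of the table were left out. No detection calls were used.

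Gene names came from the platform annotation, by which 41091 probe sets had 1 symbol, 1801 several and 11721 none, besides 62 array controls. By gene ID, 41037 matched the RefSeq table of GRCh38.p14, which replaced 0 symbols. The 25th percentile of all signals, 14.1, was added to the deposited intensities before taking log2. Probe sets were kept where the highest array reached the median of all signals (56.4), leaving 26218 probe sets for 13717 genes, and the brightest probe set by mean log2 value represented its gene. Single arrays were compared as differences, called at 2-fold, with no test. Average effects were fitted in R 4.3.3 by limma 3.58.1 (eBayes after lmFit, two-sided, Benjamini-Hochberg over all genes). Recovery of effect sizes by that fit was checked on simulated data with independent noise. The check does not bear on the p-values of these arrays, where the residual is the difference of responses. Python 3.11.15, pandas 2.3.3, numpy 2.4.6 and matplotlib 3.10.9 were used for the rest. Whether the samples are separate cultures is not stated in the labels.

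Named were all members with every probe set, up to 4 genes per list with the largest difference among those at least 2-fold apart in any of the 4 single-array comparisons, and the 3 genes most like each member that spanned at least 1 on the log2 scale. The members, lists, tests and alternatives were chosen with earlier results of these data known. Alternatives were 2 other pseudocounts, quantile and cyclic loess normalization, the median of a gene's probe sets, no filter, and, for limma, an error variance that follows the level.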

Additional observations from a re-analysis of the deposited data

Results flagged for a closer look

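With 1 array per group, a pattern is listed here where a response to stimulation or a line difference pointed in opposite directions in the 2 groups compared. None of these differences was tested, and small values near 0 can change sign readily. The solvent array of the control line enters both the response of that line and the line difference with solvent, so these are not separate findings. Values are the response of the shIKKE line minus that of the control line on the log2 scale, by the brightest probe set.

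Among the members, RB1 had a difference of 0.64 (0.35 in the shIKKE line and -0.29 in the control line) and CDK6 one of -0.52 (-0.30 and 0.23). CDK4 had -0.35, CDKN1B 0.30 and CCND2 -0.0635. For RB1, CDK6 and CDK4 the line difference also changed sign between the treatments. The RB1 difference was 0.07 by the dimmer probe set, and CDK6 gave values from -0.52 to 0.59 over its 7 probe sets.

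Among the genes around the G1 switch, the differences were larger for SESN3 (2.26), CCNG2 (1.94), FBXO31 (-1.74) and E2F5 (-1.31), and E2F8 had 0.96. In CDT1 (1.12), GADD45A (0.91), IL7R (0.70) and E2F3 (-0.54) the responses had the same sign in both lines, and the line difference changed sign between the treatments. Each of the 5 CCNG2 probe sets was higher with stimulation in the shIKKE line, by 0.69 to 1.47, and 4 of the 5 were lower with stimulation in the control line. By contrast, 5 of the 7 SESN3 probe sets had a difference of responses below 0, over a range from -1.09 to 2.26, and the other E2F5 probe set gave 0.51. The other FBXO31 probe set gave -1.10, and E2F8 has 1 probe set. By their other probe sets the line differences of CDT1 (-0.19 with stimulation and -0.73 with solvent) and IL7R (-0.24 and -0.41) did not change sign. For IL7R the brightest probe set gave only 0.0008 with stimulation. The other E2F3 probe set changed sign as the brightest did, and GADD45A has 1 probe set.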

How the results depend on the processing

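No paired analysis was possible because each group has 1 array and the labels carry no replicate numbers, and no array could be left out for the same reason. The arrays, 1 per group, and signals near background limit what can be said, above all for CCND2 in the control line. CDKN1A stayed at least 2-fold higher with stimulation in both lines under the 6 alternatives run. It lay at 2.66 to 3.20 on the log2 scale in the shIKKE line and 2.18 to 2.42 in the control line. As CDKN1A has 1 probe set, the median of probe sets and no filter could not change its values. CCND2 kept at least 1.49 between the lines with stimulation. With the median of a gene's probe sets, 2 members (CDKN1A and CCND3) were higher and 1 (CDKN2D) lower with stimulation in the control line. Of all genes, 1093 were higher and 831 lower there in that setting. Between the lines, 1 (CCND3) was lower in the shIKKE line with stimulation, against 326 of all genes. With solvent 0 were higher and 1 lower, against 610 and 866 of all genes. A lower response in the shIKKE line was seen for 1 (CCND3), against 717 of all genes. The CCND3 and CDKN2D calls depend on dimmer probe sets that each passed the filter through 1 array, so they are no separate support for a change. The median setting uses dimmer probe sets, and it reversed E2F2 with stimulation in the shIKKE line (0.34) and BCL6 between the lines with solvent (0.26). With the median of all signals as pseudocount, 1 member was lower in the shIKKE line with solvent. With the shIKKE line given solvent as baseline for the stimulated control line, a choice made after seeing the data, 1 member (CCND2, -1.93) was lower.

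In limma, CDKN1A passed for stimulation (1 member) with the median of all signals as pseudocount, at an adjusted p of 1.24e-05, and with the error variance following the level, at 4.41e-19, over a range of 4.41e-19 to 0.235 in 7 alternatives. For the line, CCND2 (1 member) passed under the first of these at an adjusted p of 0.0152, and CCND2 and CCND3 (2 members) under the second, at 0.000182 and 0.0024, over ranges to 0.694 and 0.768. The error variance following the level takes the error from other genes of like level. Over all genes, limma called 588 and 1044 for stimulation under these settings and 46 and 232 for the line. It called 0 for stimulation with a pseudocount of 1, cyclic loess, the median of probe sets or no filter, where 1626, 1881, 1899 and 2150.0 genes had an unadjusted p under 0.05.

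Counts of all genes at least 2-fold apart fell with the larger pseudocount and grew with no filter, which tests more genes. With the larger pseudocount they were 688 higher and 129 lower for stimulation in the shIKKE line, 539 and 434 in the control line, 257 and 107 for the line with stimulation, 215 and 416 with solvent, and 851 and 305 for the difference of responses. With no filter they were 2200 and 796, 1648 and 1380, 1560 and 704, 1235 and 1458, and 2662 and 1419 in the same order. For stimulation in the shIKKE line, 691 genes were lower after quantile normalization and 615 after cyclic loess, against 368 with the deposited scaling.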
